A study of Arabidopsis thaliana with 8 samples.

Results

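The regions described here are the 76 windows of 100 bp that cover 5.8S rRNA, the second internal transcribed spacer (ITS2) and 25S rRNA in the 45S rDNA copies on chromosomes 2 and 3 of *Arabidopsis*. They were chosen by position, as windows chr2_57 to chr2_94 and chr3_141997 to chr3_142034, out of 1196681 windows of the genome, and each was read at every sRNA length from 18 to 26 nt. Libraries were made from 18-day-old seedlings grown at 23 °C, 2 for each of 4 genotypes. The mutants *hot3-2* and *hot3-3* each have a T-DNA inserted in *HOT3*, the gene of the translation factor eIF5B1. *HOT3-EYFP* is the *hot3-2* mutant with a HOT3-EYFP transgene under the *HOT3* promoter, so it keeps the *hot3-2* insertion. WT is Col-0. The study calls its replicates independent without saying which step was repeated, so *P* values measure only the spread between these libraries.

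In eukaryotes, RNA polymerase I makes a long 45S precursor that holds 18S, 5.8S and 25S rRNA, separated and flanked by transcribed spacers that are cut away during maturation. 5.8S and 25S end up base-paired in the large ribosomal subunit, and ITS2 is the spacer between them. Short RNAs from rRNA include breakdown fragments of many lengths as well as Dicer products, which in plants are mostly of a few defined lengths.

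A window counts the reads whose leftmost base lies in it, without regard to strand. On chromosome 2, 5.8S (AT2G01020) lies at chr2:5782-5945, ITS2 at chr2:5946-6133 and 25S at chr2:6134-9520. On chromosome 3, 5.8S (AT3G41979) lies at chr3:14199753-14199916, ITS2 at chr3:14199917-14200104 and 25S at chr3:14200105-14203491 (TAIR10.1, plus strand). RefSeq annotates the 5.8S genes but not 25S, and lists other gene models over it, among them AT2G03875 on chromosome 2 and AT3G06365 on chromosome 3. The copies differ at 11 bases of 25S, 2 of ITS2 and 0 of 5.8S, so most reads fit both. By the window center, 2 windows belonged to 5.8S, 4 to ITS2 and 68 to 25S, and the remaining 2 hold the start of 5.8S.

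The sequences below are those of the windows in which counts peaked or moved most. The first is the window where 5.8S ends, with the bases of 5.8S in capitals. In the next 5, capitals mark bases that differ between the copies, and positions count from the first base of 25S.

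chr2_59, end of 5.8S and start of ITS2 (chr2:5900-5999, plus strand): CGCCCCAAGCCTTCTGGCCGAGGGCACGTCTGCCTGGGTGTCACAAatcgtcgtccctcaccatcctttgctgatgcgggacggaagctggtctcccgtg
chr3_142018, 25S 1696 to 1795 (chr3:14201800-14201899, plus strand): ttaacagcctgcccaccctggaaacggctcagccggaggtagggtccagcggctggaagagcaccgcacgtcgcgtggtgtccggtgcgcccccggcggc
chr3_142020, 25S 1896 to 1995 (chr3:14202000-14202099, plus strand): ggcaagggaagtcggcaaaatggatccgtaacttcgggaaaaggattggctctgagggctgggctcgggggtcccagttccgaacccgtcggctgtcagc
chr3_142021, 25S 1996 to 2095 (chr3:14202100-14202199, plus strand): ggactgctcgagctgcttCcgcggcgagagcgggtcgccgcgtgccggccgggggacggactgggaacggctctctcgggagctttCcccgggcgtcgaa
The same positions of chromosome 2 (chr2:8129-8228, plus strand): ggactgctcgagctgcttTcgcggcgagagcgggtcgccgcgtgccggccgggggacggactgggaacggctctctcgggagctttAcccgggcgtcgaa
Overlap of chr2_93 and chr3_142033, 25S 3196 to 3266 (chr2:9329-9399, plus strand): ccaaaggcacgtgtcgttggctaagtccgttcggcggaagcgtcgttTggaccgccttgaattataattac

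The last stretch runs over the 3′ end of 25S. It opens with the site of the northern probe P3333 (chr2:9478-9500), and capitals mark the last 21 bases of 25S, which all lie in the window after chr2_94.

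3′ end of 25S (chr2:9478-9540, plus strand): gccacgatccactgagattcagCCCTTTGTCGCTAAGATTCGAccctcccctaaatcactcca

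Total counts of 18 to 26 nt were 6793502 to 8210328 per library. The 76 windows held 25.1% and 25.5% of them in *hot3-2*, 30.9% and 31.2% in *hot3-3*, 38.5% and 38.6% in *HOT3-EYFP*, and 31.9% and 32.2% in WT. The share was lowest in *hot3-2* and highest in *HOT3-EYFP*, while *hot3-3* lay just under WT. In whole seedlings, fewer cells of a type and less RNA per cell cannot be told apart. Reads outside rDNA and the organelles took 50.6% to 51.1% in *hot3-2*, 45.4% to 45.7% in *hot3-3*, 32.2% to 32.7% in *HOT3-EYFP* and 41.7% to 42.1% in WT. Levels below are CPM, the count scaled to the library total, as the study scaled its rDNA reads. Because rDNA made up so much of each library, a fold change on this scale depends on the scaling, and shares within a region, which do not, are given beside it. Libraries of the same genotype differed by more than sampling noise, with chi-square per degree of freedom of 3.87 to 12.8 over the windows described.

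The counts were far from even along the regions. At 21 nt the mean level of a window ran from 0 to 6270 CPM with a median of 189 CPM, and 7 windows were under 1 CPM. The highest at 19, 20, 21, 24, 25 and 26 nt was chr2_57, whose last 18 bases are the start of 5.8S. At 18 nt it was chr3_142020 with 17240 CPM, and at 22 and 23 nt chr3_142021 with 12495 and 14048 CPM. These peaks adjoin each other in the middle of 25S and were seen on chromosome 3, while chr2_81, which overlaps both on chromosome 2, had at most 34.6 CPM at 18 nt and 33.9 CPM at 22 nt. Over all lengths, 71.9% to 75.1% of 25S reads were placed on chromosome 3, against 18.8% to 23.6% in the last 500-nt segment. How reads that fit both copies were placed for the window counts is not given in the sources used here, so a window is best read together with its counterpart on the other chromosome.

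**Figure D1:**
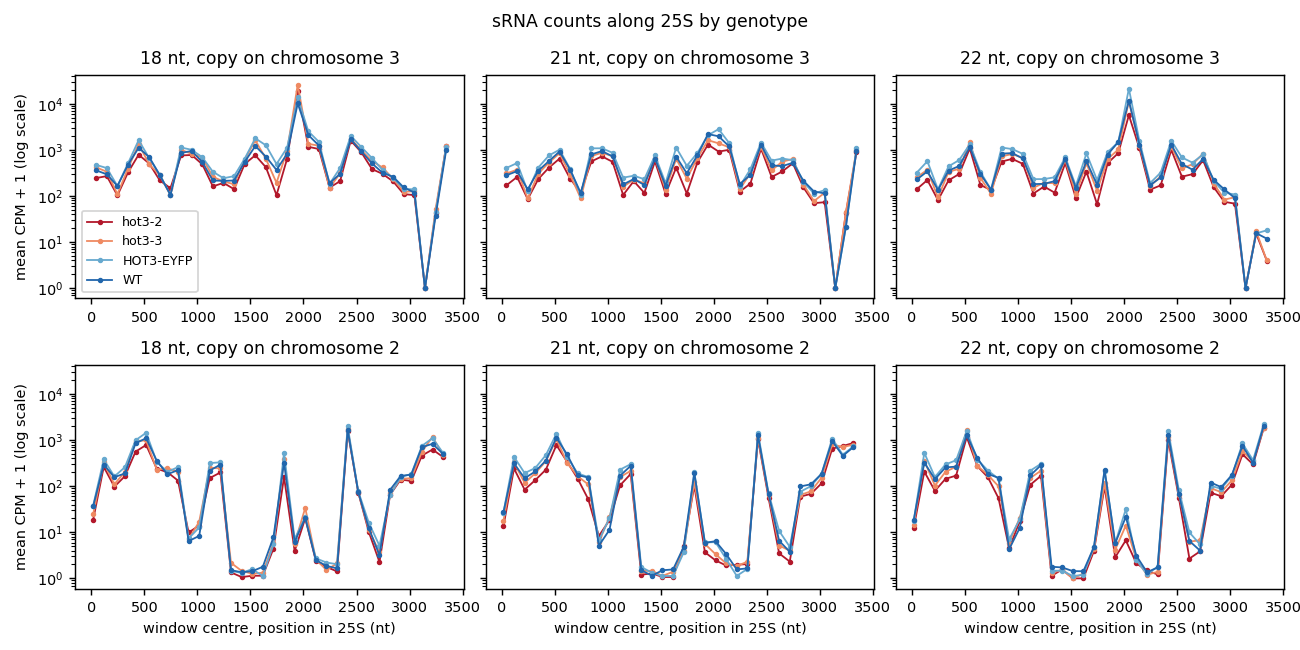
Mean CPM of the 2 libraries of each genotype plus 1 (log scale) in each window along 25S, at 18, 21 and 22 nt, for the copies on chromosomes 3 and 2. The 18-nt peak at 1896 to 1995 is highest in *hot3-3* and the 22-nt peak at 1996 to 2095 is lowest in *hot3-2*.

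At 21 nt, the 25S windows summed to 19124 and 19154 CPM in *hot3-2*, 23694 and 23777 CPM in *hot3-3*, 30969 and 31075 CPM in *HOT3-EYFP*, and 26144 and 26324 CPM in WT. The 4 allele libraries lay below the other 4. In edgeR's quasi-likelihood test over all windows and regions of that length, with Benjamini-Hochberg adjustment, 25S fell by 0.45 ± 0.01 on the log2 scale in *hot3-2* against WT (SE, n = 2 each, adjusted *P* = 7.4e-21). It fell by 0.14 ± 0.01 in *hot3-3* against WT, although scaling to the 76 windows turned this to 0.06, and was 0.70 ± 0.01 higher in *HOT3-EYFP* than in *hot3-2*. *HOT3-EYFP* also exceeded WT, by 0.24 ± 0.01. For the mean of the alleles against the mean of *HOT3-EYFP* and WT, the plants with functional HOT3, the log2 change was -0.42 ± 0.01. Scaled to reads outside rDNA and the organelles it was -0.80, and scaled to the 76 windows it was -0.040. The latter scaling uses the count of the 76 windows at the same length, which is mostly 25S. It therefore draws the 25S change toward 0 by construction and is no check on the fall.

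Across lengths, that comparison gave log2 changes of 25S between -0.59 at 22 nt and -0.37 at 19 nt, and 0.14 at 18 nt. The one positive length is the length of the peak at chr3_142020: without the 2 peak windows, 25S at 18 nt was at -0.29. Scaled to reads outside rDNA and the organelles, 25S at 18 nt was at -0.25. 5.8S had log2 changes between -0.28 (18 nt) and -0.56 (21 nt), all past the test, but was at 0.10 at 22 nt when scaled to the 76 windows. ITS2 fell by 0.57 to 0.92 at 18 to 22 nt, but its windows that lie wholly inside the spacer were higher, at 0.93 at 21 nt and 1.01 at 22 nt. For comparison, 18S, the rRNA of the small subunit, was at -0.24 at 21 nt and -0.77 at 23 nt, whereas the spacers before 5.8S rose at 21 nt, by 1.28 ± 0.05 in the 5′ ETS and by 2.24 ± 0.11 in ITS1.

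25S and 18S were set against each other as a log2 ratio within each library, which needs no scaling. The 18-nt ratio reached 2.23 and 2.25 for *hot3-2*, then 2.44 and 2.45 for *hot3-3*, against 1.74 and 1.76 in *HOT3-EYFP* and 1.52 and 1.55 in WT. The alleles were higher by 0.70, with no overlap (two-sided exact permutation test of 4 against 4 libraries, *P* = 0.0286, the smallest this design allows; adjusted over 9 lengths 0.0643). Without the windows chr3_142020 and chr3_142021, where 25S reads peaked, it was 0.28. At 23, 24 and 25 nt the difference was 0.36, 0.27 and 0.18, with the same *P* values. At 21 nt it was -0.18 (exact permutation *P* = 0.171) and at 22 nt -0.00 (*P* = 0.971), with overlapping groups. Without the 2 peak windows, the 22-nt difference was 0.21 (exact permutation *P* = 0.0286, adjusted 0.0514).

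The length make-up of 25S differed most at 18 nt. Reads of 18 nt made up 21.1% and 20.9% of the 25S reads of 18 to 26 nt in *hot3-2* and 20.9% and 21.2% in *hot3-3*. They made up 15.0% and 15.1% in *HOT3-EYFP*, and 14.8% and 15.1% in WT. The alleles were alike and all higher, by 6.05 percentage points (exact permutation *P* = 0.0286, adjusted over 27 comparisons 0.0857). Reads of 22 nt took 12.4% on average in the alleles against 14.7% with functional HOT3, again without overlap. Without the 2 peak windows the difference at 18 nt was 1.09 points and that at 22 nt 0.15 points.

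**Figure D2:**
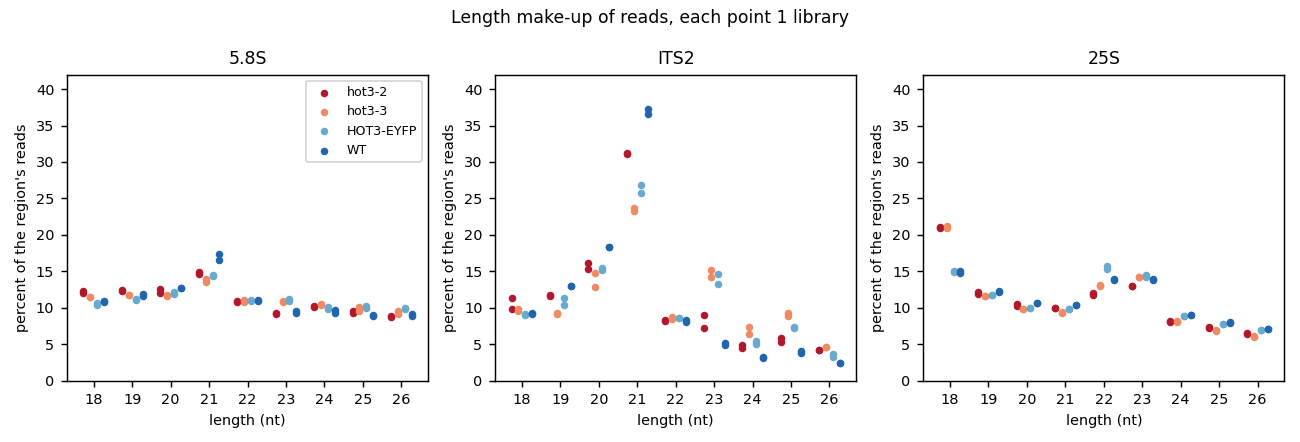
Percent of the reads of each region (18 to 26 nt) at each length, with each point 1 library, in the order *hot3-2*, *hot3-3*, *HOT3-EYFP* and WT at each length. In 25S the allele points at 18 nt lie at 20.9% or more and the others at 15.1% or less, and in ITS2 reads of 21 nt are the largest class in every library.

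The windows counted as ITS2 had another make-up, with 21 nt as their main length. Most of their 21-nt reads lay in chr2_59, which holds 46 bases of 5.8S beside 54 of ITS2. The chromosome 3 windows held 3.22% to 19.9% of them. This make-up is therefore largely that of the window at the 5.8S end, not of the spacer alone. Of the ITS2 reads, 21 nt was 31.2% in both *hot3-2* libraries, 23.7% and 23.2% in *hot3-3*, 26.9% and 25.8% in *HOT3-EYFP*, and 37.3% and 36.6% in WT. The alleles and the plants with functional HOT3 overlapped (difference -4.29 points, exact permutation *P* = 0.314). At 23 nt, *hot3-3* and *HOT3-EYFP* stood together: 14.2% and 15.2% for the *hot3-3* libraries, with 13.3% and 14.7% for *HOT3-EYFP*, against 7.19% and 8.93% in *hot3-2* and 4.91% and 5.21% in WT. In 5.8S no length differed by more than 1.40 points. Of the 27 comparisons of length make-up, 9 reached the smallest *P* the design allows, and none had an adjusted *P* under 0.05.

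Along 25S, the reads of 1 length were divided over 7 segments of 500 nt, the last one shorter. At 18 nt, segment 4 (1501 to 2000), which holds chr3_142020, took 53.8% of the 25S reads on average in the alleles and 38.0% with functional HOT3. At 21 nt the largest shift lay at the other end of the molecule. Segment 7 (from 3001 to the 3′ end) held 17.6% and 17.7% of 21-nt reads in *hot3-2* and 15.2% and 15.3% in *hot3-3*, against 12.2% and 11.8% in *HOT3-EYFP* and 13.1% and 12.8% in WT. The alleles were higher by 3.95 points without overlap (exact permutation *P* = 0.0286, adjusted over 63 comparisons 0.0581). The level of segment 7 at 21 nt had a log2 change of -0.03 ± 0.01 (edgeR adjusted *P* = 0.13), between -0.41 and 0.35 over the scalings tried. At 22 nt, the share of segment 2 was higher in the alleles by 3.67 points with the same *P* values. A share can rise while the level falls. Over all lengths, segment 2 had 29289 to 36899 CPM in the allele libraries and 39586 to 47011 CPM with functional HOT3. Segment 5, with chr3_142021, was 6.85 points lower at 22 nt, but *hot3-3* (46.1% and 46.6%) was like WT (45.3% and 46.1%) and the groups overlapped. No segment passed an adjusted *P* of 0.05.

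Single windows were then compared in the same edgeR fits, where calls were made at 2-fold or more with adjusted *P* under 0.01. Of the 684 pairs of window and length, 615 had at least 10 counts in 2 libraries and were tested. In *hot3-2* against WT, 4 were higher and 43 lower, that is 0.65% and 6.99%. Over all windows of the genome, 2.55% were called higher and 1.61% lower in that comparison. Scaled to the 76 windows, 14 were higher and 14 lower, and scaled to reads outside rDNA and the organelles, 1 was higher and 141 lower. In *hot3-3* against WT, 7 were higher and 7 lower, against 1.92% higher and 1.75% lower genome-wide. The members' shares, 1.14% each way, were below this background.

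In *HOT3-EYFP* against *hot3-2*, 153 pairs were higher and 2 lower, or 24.9% and 0.325% of those tested, with a genome-wide background of 2.12% and 5.17%. In *HOT3-EYFP* against WT, 2 were higher and 0 lower (background 0.223% and 0.868%). With no fold limit, edgeR gave 256 higher and 3 lower in that comparison, against 0.937% and 1.44% genome-wide. In the alleles against functional HOT3, 7 were higher and 27 lower, or 1.14% and 4.39%, with 4.97% and 2.09% genome-wide. With TMM normalization the lower calls in the alleles were 55, and scaled to reads outside rDNA and the organelles they were 165. Scaled to the 76 windows, 8 were lower and 13 higher.

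At the same adjusted *P* with no fold limit, 446 of the 615 pairs were lower and 16 higher in the alleles against functional HOT3 (genome-wide 4.65% lower and 6.3% higher). In *hot3-2* against WT, 408 were lower and 13 higher (3.44% and 2.9%). In *hot3-3* against WT, 181 were lower and 62 higher (3.48% and 2.27%). In *HOT3-EYFP* against *hot3-2*, 460 were higher and 7 lower (3.52% and 5.88%). These comparisons share libraries, so their counts are not independent.

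**Figure D3:**
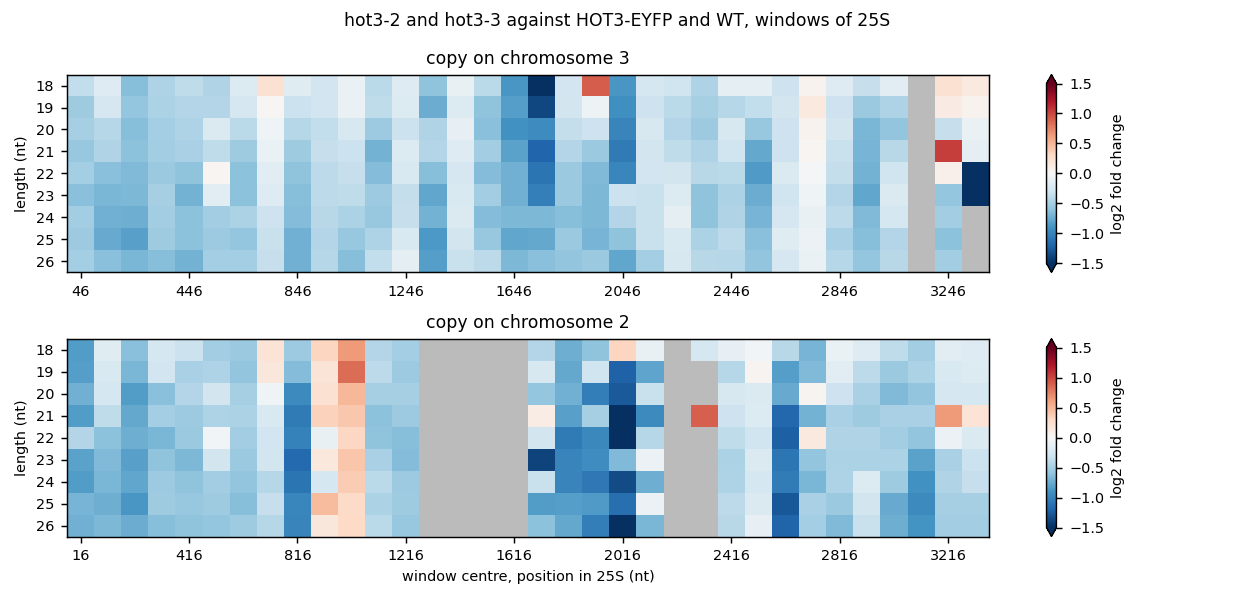
Log2 fold change of *hot3-2* and *hot3-3* against *HOT3-EYFP* and WT for each 25S window (horizontal, by position) and length (vertical), with blue lower and red higher in the alleles, colors saturating at 1.5 and grey not tested. Most cells are blue, with the red 18-nt cell at 1896 to 1995 and the red 21-nt cells near the 3′ end standing apart from their neighbours.

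The median log2 change of the windows in the alleles against functional HOT3 was -0.28 at 18 nt, -0.47 at 21 nt and -0.51 at 22 nt. Over all windows tested it was 0.02, 0.34 and 0.39. Relative to those medians the falls at 21 and 22 nt are larger, and the rises smaller, than printed. At the longest lengths the medians over all windows were below 0 as well. The windows described had medians of -0.54 at 25 nt and -0.53 at 26 nt, with -0.37 and -0.55 over all windows tested.

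The peak windows moved in opposite ways. chr3_142020 at 18 nt had 18936 and 19078 CPM in *hot3-2*, 25514 and 26465 CPM in *hot3-3*, 13389 and 14051 CPM in *HOT3-EYFP*, and 9960 and 10529 CPM in WT. All 4 allele libraries were above the other 4, with *hot3-3* the highest. The log2 change was 0.89 ± 0.04 in *hot3-2* against WT (edgeR adjusted *P* = 2.4e-05) and 1.343 ± 0.04 in *hot3-3* against WT (6.8e-06). *HOT3-EYFP* was 0.47 ± 0.04 below *hot3-2* and 0.42 ± 0.04 above WT. At 21 nt the same window ran the other way, at -0.56 in the alleles. Reads of 18 nt made up 67.6% to 69.6% of this window's reads in the alleles and 42.5% to 49.6% with functional HOT3.

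The window of chromosome 2 that overlaps it at positions 1967 to 1995, chr2_81, was low in count, but its 18-nt share shifted likewise. There 18 nt took 39.6% to 47.2% of the reads in the alleles and 19.3% to 25.3% in the others. Most of chr3_142020, positions 1896 to 1966, corresponds instead to 1 of the 5 windows of segment 4 on chromosome 2. The sum of the 5 was lower at 18 nt in the alleles, and the value of that window alone is not given here. The log2 change of chr2_81 in the alleles was -1.499 ± 0.26 at 21 nt and -1.54 ± 0.14 at 22 nt. At 22 nt it had 6.13 and 5.25 CPM in *hot3-2* and 12.5 and 13.5 CPM in *hot3-3*, against 27.4 and 33.9 CPM in *HOT3-EYFP* and 22.5 and 18.5 CPM in WT. Allele and other libraries did not overlap, and *hot3-2* was the lowest.

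chr3_142021 at 22 nt had 5513 and 5824 CPM in *hot3-2*, 11027 and 11636 CPM in *hot3-3*, 20958 and 21637 CPM in *HOT3-EYFP*, and 11435 and 11929 CPM in WT. Here *hot3-2* stood apart, *hot3-3* overlapped WT, and *HOT3-EYFP* was the highest. The log2 change was -1.04 ± 0.05 in *hot3-2* against WT (edgeR adjusted *P* = 0.00032), -0.04 ± 0.05 in *hot3-3* against WT (0.69) and 1.91 ± 0.05 in *HOT3-EYFP* against *hot3-2*. At 21 nt this window fell in both alleles, by 1.11 ± 0.02 in *hot3-2* and 0.51 ± 0.02 in *hot3-3*. It holds both copy differences at positions 2014 and 2082, shown above in capitals.

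The overlapping windows chr3_142018 and chr2_79 were lower in the alleles. chr3_142018 (1696 to 1795) at 21 nt had 111 and 113 CPM in *hot3-2* and 237 and 239 CPM in *hot3-3*. It had 431 and 469 CPM in *HOT3-EYFP*, and 311 and 309 CPM in WT. The alleles lay below the other libraries, with *hot3-2* lowest, and the log2 change was -1.19 ± 0.04 for the alleles (edgeR adjusted *P* = 2.1e-16). The window was called lower at 18, 19, 21, 22 and 23 nt. chr2_79 (1767 to 1866) fell by 1.06 ± 0.05 at 22 nt, with 95.0 to 117 CPM in the alleles and 215 to 230 CPM with functional HOT3.

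**Figure D4:**
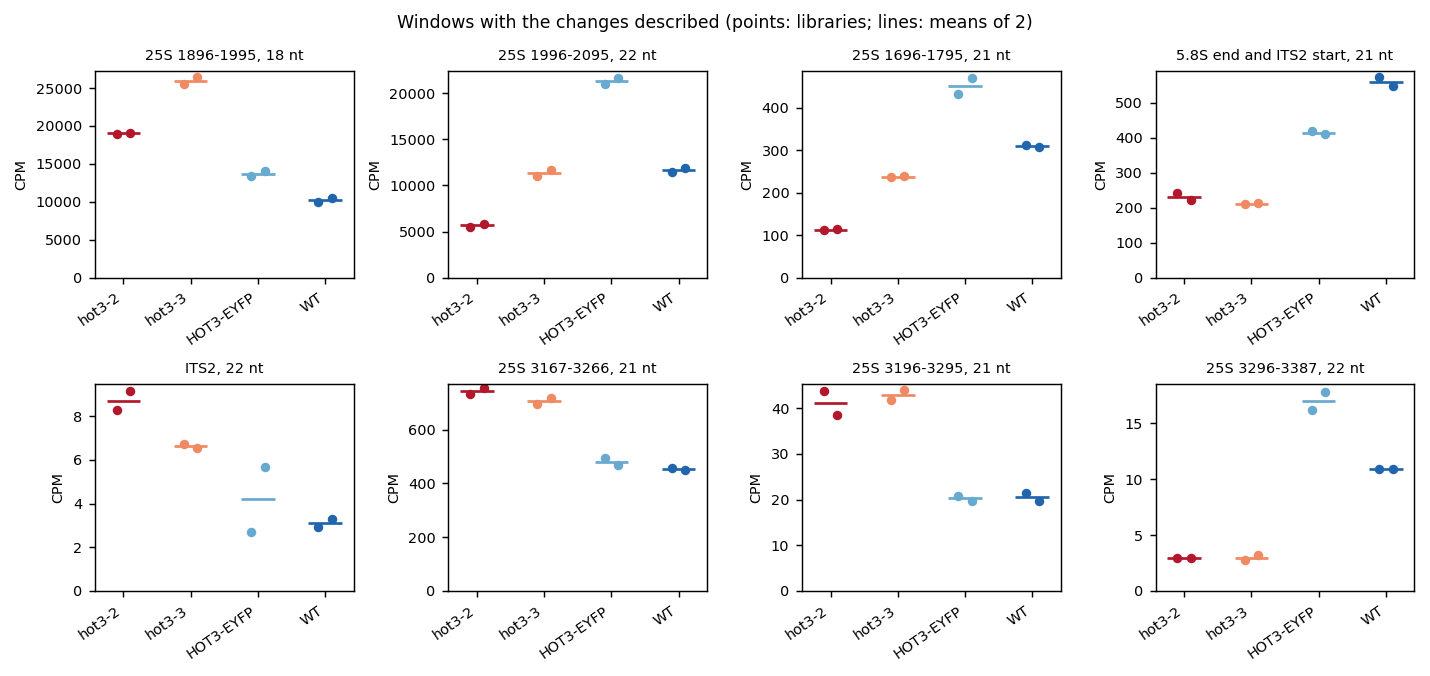
CPM of 8 windows at the length given in each title, with points for libraries and lines for the mean of 2, in the order *hot3-2*, *hot3-3*, *HOT3-EYFP* and WT. In 7 panels the 4 allele libraries lie on 1 side of the other 4, and in the panel of 1996 to 2095 at 22 nt *hot3-3* overlaps WT. Most of these windows were named because their groups did not overlap, so that separation is no separate result.

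Windows at the 3′ end of 5.8S moved in both directions. chr2_59 holds 46 bases of 5.8S (119 to 164) and the first 54 of ITS2. At 21 nt it had 242 and 221 CPM in *hot3-2* and 210 and 213 CPM in *hot3-3*, against 419 and 411 CPM in *HOT3-EYFP* and 574 and 548 CPM in WT. Both alleles were low, at -1.28 ± 0.05 and -1.41 ± 0.05 against WT (edgeR adjusted *P* = 1.8e-14 and 1.2e-14), and *HOT3-EYFP* did not reach WT, at -0.44 ± 0.05. On chromosome 3, chr3_141998 (5.8S 48 to 147) fell by 1.02 ± 0.03 in the alleles at 21 nt. chr3_141999, which holds the last 17 bases of 5.8S and the first 83 of ITS2 on that chromosome, went the other way. A read of 18 nt or more counted there and matching in full runs into ITS2 or lies in it. chr2_59 and chr3_141998 also take reads that end within 5.8S. At 21 nt chr3_141999 had 20.97 and 38.1 CPM in *hot3-2* and 47.6 and 40.5 CPM in *hot3-3*, against 21.8 and 13.4 CPM in *HOT3-EYFP* and 17.2 and 18.1 CPM in WT. With the groups overlapping, its log2 change of 1.03 ± 0.24 was not called (edgeR adjusted *P* = 0.020). At 26 nt it had 7.42 to 11.4 CPM in the alleles and 3.39 to 6.33 CPM with functional HOT3 and was called higher, at 1.21 ± 0.21 (edgeR adjusted *P* = 0.0025), though not without WT replicate 1 (1.15) or when scaled outside rDNA and the organelles (0.83). The share of 21 nt among its reads was higher in all 4 allele libraries, by 2.71 points. chr2_58, which covers 5.8S 19 to 118, had a log2 change of -0.22 at 21 nt. The windows that hold the 5.8S start, chr2_57 and chr3_141997, summed to 8118 and 8401 CPM at 21 nt in *hot3-2* and 7324 and 7257 CPM in *hot3-3*, against 9257 and 9319 CPM in *HOT3-EYFP* and 8813 and 8986 CPM in WT. Their log2 change in the alleles was -0.23 ± 0.01. chr2_57 alone, the higher of them, was at -0.13 ± 0.04 at 21 nt and did not pass the test (edgeR adjusted *P* = 0.088).

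Since chr2_59 counts with ITS2 by its center, it carried most of the ITS2 sum at 21 nt. On chromosome 3 alone that sum had a log2 change of 1.05 in the alleles and just missed the test (edgeR adjusted *P* = 0.010). The windows wholly inside ITS2 were low and went the other way. chr3_142000 at 22 nt had 8.28 and 9.15 CPM in *hot3-2* and 6.73 and 6.55 CPM in *hot3-3*. It had 2.68 and 5.69 CPM in *HOT3-EYFP*, and 2.94 and 3.31 CPM in WT. The alleles were all higher, by 1.08 ± 0.23 at 22 nt (edgeR adjusted *P* = 0.00036) and by 1.09 ± 0.24 at 21 nt (0.0015). The window had 13 to 68 reads per library at these lengths, and with TMM normalization the changes were 0.71 at 22 nt and 0.82 at 21 nt and no longer called. Its counterpart chr2_60 had 0.427 to 2.14 CPM at these lengths and was not called. At the border of ITS2 and 25S, chr2_61 and chr3_142001 hold the 25S start. chr2_61 at 21 nt had 11.7 to 17.3 CPM in the alleles and 18.5 to 32.9 CPM in the others, at -0.84 on the log2 scale. chr3_142001 at 21 nt had 173 and 167 CPM in *hot3-2*, then 306 and 308 CPM for *hot3-3*, against 401 and 411 CPM in *HOT3-EYFP* and 279 and 283 CPM in WT. It fell in *hot3-2*, at -0.72 ± 0.05 against WT, while *hot3-3* lay above WT without passing the test (0.13 ± 0.05, edgeR adjusted *P* = 0.082).

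Near the 3′ end of 25S, reads of 21 nt behaved unlike those of 22 nt. chr2_93 (3167 to 3266) at 21 nt had 733 and 755 CPM in *hot3-2* and 695 and 717 CPM in *hot3-3*, against 493 and 468 CPM in *HOT3-EYFP* and 457 and 451 CPM in WT. The alleles were all higher, by 0.71 ± 0.04 and 0.64 ± 0.04 against WT, and *HOT3-EYFP* did not pass the test against WT (0.08 ± 0.04, edgeR adjusted *P* = 0.24). At 22 nt the same window was at -0.09. chr3_142033 (3196 to 3295) overlaps it and at 21 nt had 43.7, 38.6, 41.8 and 44.1 CPM in the 4 allele libraries, against 19.6 to 21.5 CPM in the others. It rose by 1.04 ± 0.10 (edgeR adjusted *P* = 5e-08), while at 22 nt it was at 0.08. With TMM normalization chr3_142033 was at 0.77 and below the fold limit.

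The share of 21 nt within a window shows this without scaling. For chr2_93, 21 nt made up 25.6% and 26.8% in *hot3-2*, then 18.6% and 18.3% in *hot3-3*, against 12.8% and 12.2% in *HOT3-EYFP* and 14.0% and 14.2% in WT. For chr3_142033 it was 19.9% to 25.1% in the alleles and 10.5% to 11.7% with functional HOT3. chr2_91, chr2_92 and chr2_94 had smaller differences in the same direction, of 0.56, 1.92 and 2.51 points. chr3_142034, which holds the 25S end, was lower by 1.71 points, and the 21-nt level of that window changed by -0.13. The difference without overlap was seen in 6 higher and 11 lower windows of the 67 with at least 100 reads in each library. Genome-wide such windows were 6.36% and 3.06%, so 6 of 67 is near the background. Of these 6, 5 lie from 2967 to the 3′ end, where they adjoin or overlap. They are therefore not separate observations, and their place was not tested. At 18 nt the share was higher without overlap in 28 of the 67 windows and lower in 2 (8.03% and 2.08% genome-wide). At 22 nt it was higher in 5 and lower in 13 (7.22% and 3.59%).

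**Figure D5:**
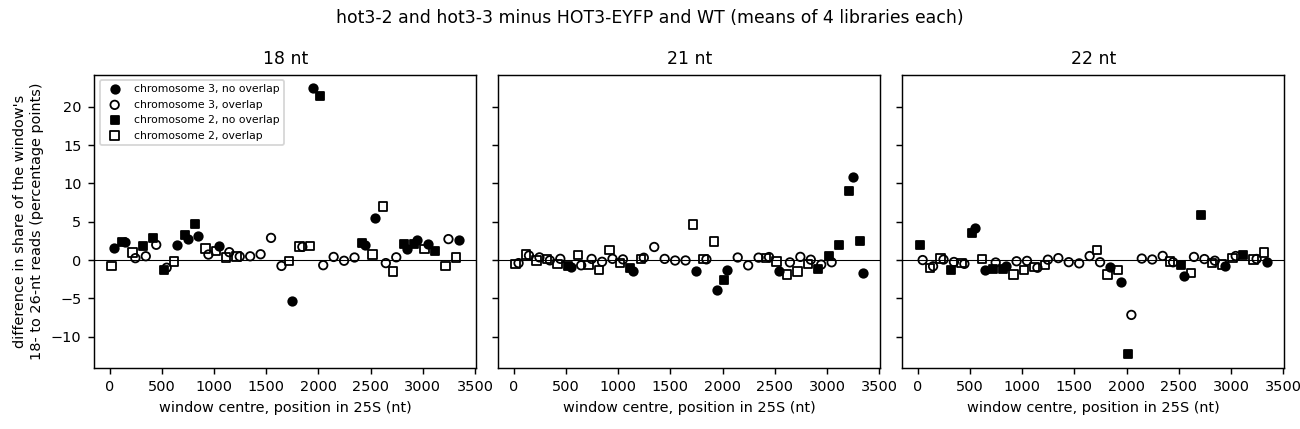
Difference between the alleles and the plants with functional HOT3 (means of 4 libraries each) in the share that 18, 21 or 22 nt takes of each 25S window's reads, by position, with circles for chromosome 3, squares for chromosome 2, and filled symbols where the 4 allele libraries do not overlap the other 4. The highest points are the 18-nt shares of chr3_142020 and chr2_81 and, near the 3′ end, the 21-nt shares of chr3_142033 and chr2_93.

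At the 3′ end itself, reads of 18 to 21 nt were counted about equally in chr3_142034, in the window after chr2_94, and in a window of chromosome 3 that holds a 144-bp piece of 25S (chr3:14192939-14193082) identical to the chromosome 2 copy. The probe P3333 starts in chr2_94, in chr3_142034 and in that piece. At 22 nt the first 3 had at most 17.8 CPM and chr2_94 had 1769 to 2238 CPM. At 21 nt chr2_94 had 850 and 879 CPM in *hot3-2* and 789 and 800 CPM in *hot3-3*. It had 731 and 726 CPM in *HOT3-EYFP*, and 712 and 697 CPM in WT, so the allele libraries were all higher there. In the first 3 windows the groups overlapped at 21 nt. Together the 4 windows had a log2 change of -0.08 ± 0.02 in the alleles at 21 nt (edgeR adjusted *P* = 0.06) and -0.24 ± 0.02 at 22 nt. In the paper, P3333 was aimed at antisense sRNAs of 25S, and northern blots showed them accumulating in both alleles. The counts here pool both strands, and the window after chr2_94 does not hold the probe start. They therefore do not measure the sRNAs seen with the probe.

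The few reads of 22 nt left in chr3_142034 gave the largest fall called among the 76 windows at that length. They came to 3.00 and 2.96 CPM in *hot3-2* and 2.77 and 3.21 CPM in *hot3-3*, against 16.2 and 17.8 CPM in *HOT3-EYFP* and 10.9 CPM in both WT libraries. The alleles fell by 2.18 ± 0.19 (edgeR adjusted *P* = 2.7e-12), and *hot3-2* and *hot3-3* overlapped. The window after chr2_94 starts 21 bases before the 25S end. A read of 22 nt or more that starts in it and matches in full must reach past the end as set here. The mismatches allowed are not given, so a read with an added or changed last base could be counted too. That end was set by length and then checked by where reads of 21 and 22 nt stop in these windows, so these reads are no independent evidence of it. Such reads were 53, 82, 81 and 77 in the allele libraries, against 239 and 207 in *HOT3-EYFP* and 131 and 123 in WT. As a share of that window's reads they averaged 0.207% in the alleles and 0.487% with functional HOT3 (exact permutation *P* = 0.0286). At 22 nt that window had 3.57 CPM in *hot3-2* replicate 1 and 16.3 CPM in *HOT3-EYFP* replicate 1, close to chr3_142034. The reads past the end and the fall in chr3_142034 are therefore not taken as separate results.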

How the data were processed

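The authors cut 18- to 40-nt RNA out of a gel and built 8 sRNA libraries from seedlings. The deposited values are counts, whole numbers of reads per 100-bp window and length with no normalization and no strand. Tools named in the submitters' processing notes are cutadapt 4.2, Bowtie, featureCounts 2.0.3 and DESeq2 1.34.0. How the genome was aligned for the window counts is not given in the sources used here. Window numbers matched TAIR10.1 for the nuclear chromosomes and the chloroplast. Sequences were read from RefSeq's TAIR10.1 assembly. The ends of ITS2 and 25S, which RefSeq does not annotate, were set by length, and the 25S end was checked by where reads of 21 and 22 nt stop in its last window.

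All windows and the summed regions of 1 length were fitted together with edgeR 4.0.16 (R 4.3.3), with genotype as the only factor and the total count as library size. Windows needed at least 10 counts in at least 2 libraries. The fit was tested on simulated data. Shares and ratios were compared by two-sided exact permutation of 4 against 4 libraries. It took each library as a unit and did not keep the 2 libraries of a genotype together. With genotypes as units, 2 against 2, the smallest *P* of an exact permutation would be 0.333. For the alleles against functional HOT3, the edgeR *P* covers the spread within genotypes, not between them. DESeq2 1.42.0, numpy 2.4.6, pandas 2.3.3 and matplotlib 3.10.9 were also used. Precision was limited by counting error in low windows and by 2 libraries per genotype.

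Windows named are, at 21 and 22 nt, up to 5 largest rises and 5 largest falls called for the alleles with no overlap, the highest window at each length, the windows of P3333, and those at the ends of 5.8S, ITS2 and 25S. Other windows, namely chr2_58, chr2_60, chr2_91, chr2_92 and chr2_93, the 26-nt values of chr3_141999 and the reads past the 25S end, were chosen after their values were seen. The members and lists were chosen with earlier results of these data known. Alternatives were a replicate block, other library sizes, the Wald test of DESeq2, fits restricted to the genotypes of a comparison, other filters and limits, other length ranges, each copy alone, regions without their border windows, and leaving out each library. Reads of 27 nt and longer were not analysed here.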

Additional observations from a re-analysis of the deposited data

Results flagged for a closer look

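In 2 region sums the alleles moved in opposite directions from WT, in every library. ITS2 at 25 nt had a log2 change of -0.36 in *hot3-2* against WT and 0.70 in *hot3-3* against WT (edgeR adjusted *P* = 0.0090 and 0.00034, n = 2 each). 25S at 23 nt had -0.49 in *hot3-2* against WT and 0.051 in *hot3-3* against WT (edgeR adjusted *P* = 2.3e-29 and 0.00016). Neither pair held under all scalings: ITS2 in *hot3-2* was at 0.062 with TMM normalization, and 25S in *hot3-3* was at -0.069 scaled to reads outside rDNA and the organelles and at -0.093 without the 2 peak windows. The difference between the alleles was not tested, and the comparisons share the WT libraries. Groups of 2 libraries were too small to look for single libraries that stand apart.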

How the results depend on the processing

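Counts of called windows moved with the scaling and with the fold limit. Scaling to the 76 windows uses their own count at each length, so it takes out any change they share. In *hot3-2* against WT, 1 was higher and 71 lower with DESeq2 size factors, 1 and 141 scaled to reads outside rDNA and the organelles, and 14 and 14 scaled to the 76 windows. Higher calls there were 2 with no filter, 2 with DESeq2's Wald test and 7 with an unadjusted *P* under 0.01, and a limit of 1.5-fold gave 8 higher and 229 lower. In *hot3-3* against WT, higher calls were 12 with TMM normalization, 11 with DESeq2 size factors, 11 with only those genotypes fitted and 12 with unadjusted *P*, lower calls were 11 scaled outside rDNA, and 1.5-fold gave 15 higher and 43 lower. In *HOT3-EYFP* against *hot3-2*, higher calls were 247 (TMM), 261 (DESeq2 size factors), 470 (outside rDNA), 21 (the 76 windows) and 352 (1.5-fold), and lower calls 4 (TMM), 0 (outside rDNA), 12 (the 76 windows), 1 (Wald test) and 5 (unadjusted). In *HOT3-EYFP* against WT, higher calls were 19, 20, 38, 1 and 33 with TMM, DESeq2 size factors, outside rDNA, the 76 windows and 1.5-fold, and 1 was lower with unadjusted *P*. In the alleles against functional HOT3, 55 (TMM), 59 (DESeq2 size factors), 165 (outside rDNA), 8 (the 76 windows) and 170 (1.5-fold) were lower, and 1 (outside rDNA), 13 (the 76 windows), 4 (Wald test) and 11 (1.5-fold) higher. In that comparison the median log2 change of all windows at 21 nt was 0.34 as reported, 0.07 with TMM and -0.04 scaled outside rDNA.

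Of the region sums in the alleles against functional HOT3, segment 7 of 25S at 21 nt depended on the scaling, at -0.30 (TMM), -0.33 (DESeq2 size factors), -0.41 (outside rDNA) and 0.35 (the 76 windows), and was -0.12 on chromosome 3 and 0.019 on chromosome 2. Scaled to the 76 windows, segment 7 at 22 nt was 0.24, 5.8S at 22 nt 0.096 and ITS2 at 22 nt -0.17. ITS2 was 1.05 at 21 nt and 0.91 at 22 nt on chromosome 3, and 0.93 and 1.01 in windows wholly inside it. 25S at 18 nt was -0.25 scaled outside rDNA, -0.31 on chromosome 2 and -0.29 without the 2 peak windows, a setting chosen after seeing the data, and segment 4 at 18 nt was -0.73 on chromosome 2. In *hot3-3* against WT, 25S was 0.058 at 21 nt and 0.047 at 22 nt scaled to the 76 windows, and -0.14 at 21 nt, not called, by the Wald test. At 22 nt it passed the test at -0.12 on chromosome 2, at -0.070 without the peak windows, and at -0.078 with no filter and with only those genotypes. 25S at 23 nt in *hot3-3* against WT was -0.069 scaled outside rDNA, -0.13 on chromosome 2 and -0.093 without the peak windows, and 0.051 without passing the test with no filter and with the Wald test. ITS2 at 25 nt in *hot3-2* against WT was 0.062 (TMM), 0.023 (DESeq2 size factors), 0.11 (the 76 windows), 0.43 (chromosome 3) and 1.09 (wholly inside). It was -0.36 without passing the test with no filter, with the Wald test and with only those genotypes. In *hot3-3* against WT it did not pass at 0.70 on chromosome 3 and 0.77 wholly inside.

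The length make-up of 25S reversed on chromosome 2, at 0.93 points (21 nt) and 0.52 points (22 nt), with 20 to 25 nt only, at 0.51 points (21 nt), and without the peak windows, at 0.33 points (21 nt) and 0.15 points (22 nt), where 18 nt was 1.09 points. That of 5.8S was 0.31 points at 21 nt on chromosome 2 and 0.14 points at 22 nt with 20 to 25 nt only. That of ITS2 at 21 nt was 2.69 points on chromosome 3 and 1.27 points wholly inside, and at 22 nt -0.67 points on chromosome 2. Along 25S at 18 nt, chromosome 2 alone gave -1.06 points in segment 4 and 2.84 points in segment 5. chr2_57 was -0.26 at 19 nt scaled outside rDNA. Scaled to the 76 windows it was 0.28, 0.25, 0.38, 0.22, 0.27 and 0.30 at 20, 21, 22, 24, 25 and 26 nt, chr3_142021 at 23 nt was 0.072, and chr2_61 and chr3_142001 at 22 nt were 0.099 and 0.023. At 25 nt chr2_57 came to 0.25 (TMM) and 0.21 (DESeq2 size factors), and at 26 nt to 0.42 (TMM) and 0.39 (DESeq2 size factors). Where no value shows it, the cause was not tested.

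Leaving out each library gave 1 to 5 higher calls in *hot3-2* against WT, lowest without WT replicate 1, and 4 to 11 in *hot3-3* against WT, lowest without either WT library. It gave 1 to 3 lower calls in *HOT3-EYFP* against *hot3-2*, lowest without *HOT3-EYFP* replicate 2, and 3 to 8 higher calls in the alleles, lowest without WT replicate 1. 25S at 22 nt in *hot3-3* against WT was -0.097 to -0.060, the 22-nt share of ITS2 -0.093 to 0.13 points, and the 25S to 18S ratio at 22 nt -0.074 to 0.068. Without the 2 peak windows that ratio difference was 0.21. ITS2 at 25 nt in *hot3-2* against WT was -0.42 to -0.30 and passed the test in none of these, and 25S at 23 nt in *hot3-3* against WT was 0.044 to 0.058, not passing without *hot3-3* replicate 2 or WT replicate 1. With a replicate block the calls were 37 lower in *hot3-2* and 28 lower in the alleles, and 25S at 22 nt in *hot3-3* passed the test at -0.078, while 25S at 23 nt there did not at 0.051. Same-numbered libraries did not deviate together (correlations -0.20 to 0.10), which cannot show whether they were grown or prepared together. Windows under 1 CPM could not be compared at this depth.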
